A study of Mus musculus with 8 samples.

Results

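The oligoadenylate synthetase (Oas) genes were examined in RNA-seq of mouse cheek skin. A list of 8 members had been drawn up by symbol, Oas1a, Oas1b, Oas1c, Oas1g, Oas2, Oas3, Oasl1 and Oasl2, and 7 of these 8 were found among the 18901 genes of the deposited table. Oas1b was not analysed here. The table held 11 genes whose symbol starts with Oas, so that 4 of them (Oas1d, Oas1e, Oas1f and Oas1h) were not on the list. The list was made with the difference between the genotypes known, so the values of that difference are given below as a description. Nothing is read from calls of members in the tests over all genes.

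OAS proteins sense double-stranded RNA, a by-product of viral replication. Once bound to it, the active enzymes link ATP into short chains of adenylates joined through 2′-5′ bonds (2-5A), which serve as a messenger of antiviral defence inside the cell. The genes are textbook targets of interferons, which act through factors such as STAT2 and IRF9 on a promoter element called the interferon-stimulated response element (ISRE). In skin, keratinocytes and resident or recruited leukocytes can all express them.

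The study asked how loss of the transcription factor TBX20 from keratinocytes changes the skin's response to brain natriuretic peptide (BNP), a peptide linked to itch. The 4 TBX20fl/fl;K14-Cre mice, in which Cre under the keratin 14 promoter removes exons 2 to 3 of Tbx20 in keratinocytes, were set against 4 TBX20fl/fl mice without Cre. These are called knockout and control mice below and numbered as in the labels, which give the controls as flox/flox. All 8 mice carried floxed Tbx20 alleles, were female and 7 weeks old, and received 10 µg of BNP into the shaved cheek. Behaviour was then recorded for 30 min, and skin was taken after a further 5 h. No library from skin without BNP was used here, so the values say nothing of what BNP itself did. Each mouse gave 1 library of whole cheek skin. Because Cre acts only in cells that express keratin 14 and the RNA came from all cells of the skin, fewer cells of a type and less RNA per cell cannot be told apart in any value below.

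The total count per mouse was 16056282 to 19880654, and the floor of detection, set at 3 counts, was 0.151 to 0.187 CPM (counts scaled to the library total). Tbx20 had 0 to 2 counts in knockout mice and 0 to 3 in control mice, so that its loss was not detectable in whole skin. All 9 keratinocyte markers checked, Krt5 and Krt14 among them, were present, with summed CPM of 7617 to 9572 in knockout and 6931 to 9999 in control mice. Control mouse 2 stood apart: its median Spearman correlation with the other libraries was 0.919, against 0.974 to 0.99 for the rest, and its normalisation factor was 0.735, against 1.01 to 1.07. Log2 fold changes that this mouse moved by over 1.5 times are given with and without it.

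The members lie in 2 groups on chromosome 5 (GRCm38). Oasl2 (114896926 to 114912245) and Oasl1 (114923143 to 114937911) are neighbours. Oas2 (120730333 to 120749886), Oas3 (120753098 to 120777684), Oas1c (120800194 to 120812546), Oas1g (120876142 to 120887613) and Oas1a (120896256 to 120907544) follow further along. Oas1a is an active synthetase, and Oas1g is a close copy of it. Oas1c is a further copy of the mouse Oas1 cluster. Oas2 and Oas3 hold several fused OAS units, and Oas3 is known for sensing long double-stranded RNA. Oasl1 and Oasl2 carry ubiquitin-like domains behind the OAS unit. Oasl1 makes no 2-5A and is known as an inhibitor of Irf7 translation, whereas Oasl2 has kept synthetase activity.

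Since interferons are the usual inducers of these genes, the promoter windows of RefSeq (GRCm38.p6, 250 bases before to 50 bases after the annotated start) were searched for the core letters of the ISRE, GAAA, any 2 bases (NN) and GAAA again, on both strands. Of the 7 members found in the table, 6 had a window, and Oas2 had none. A match was held by 4 of the 6, Oas1a, Oas1g, Oas1c and Oas3, whereas 3.44% of all 32851 windows did. The windows of Oasl1 and Oasl2 held none, which says only that these letters are not in those windows. The elements are shown because they show how the Oas1 copies resemble each other, in 30 bases each, 5′ to 3′ on the strand of the gene, with the matched letters in capitals.
Oas1a: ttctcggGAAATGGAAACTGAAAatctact
Oas1g: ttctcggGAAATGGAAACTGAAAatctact
Oas1c: atgggacTTTCAGTTTCCATTTCccgggaa
Oas3: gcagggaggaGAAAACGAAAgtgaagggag
The stretches are chr5:120907523-120907552 for Oas1a, chr5:120887609-120887638 for Oas1g, chr5:120812606-120812635 for Oas1c and chr5:120777715-120777744 for Oas3, and all 4 genes are on the minus strand. In Oas1a, Oas1g and Oas1c a pair of overlapping matches made an element of 16 bases, and in Oas3 1 match made one of 10 bases. Oas1a and Oas1g had the same 30 bases, with the element at 20 to 5 and at 18 to 3 bases before the start. Distances are counted from the RefSeq start of each window. For Oas1a, Oas1c and Oas3 that start differs from the end of the locus given above. By the locus of Oas1a, which ends at 120907544, most of its element lies inside the gene. Oas1c had the same 16 letters on the opposite strand and further out, at 114 to 99 bases before the start, and the run it shared with Oas1a was 19 bases long. Over the whole windows Oas1a and Oas1g were identical in 85.3% of alignment columns, with a shared run of 73 bases. The letters of the gamma-activated site, TTCNNNGAA, an element of interferon-gamma responses, occurred in the window of Oas1a alone among the 6, and in 8.30% of all windows. A match of letters is a description and does not show binding.

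The likeness of Oas1a and Oas1g reaches into their transcripts and limits how well reads of 50 bases can be assigned to them. Of the 50-base stretches in the annotated transcripts, 57.6% of those of Oas1a and 45.7% of those of Oas1g also occurred in another gene, nearly all of them in each other. The share was 15.1% for Oas1c, 0.521% for Oas3, 0.138% for Oasl2 and 0 for Oas2 and Oasl1. How the deposited counts divided such reads is not given in the sources used here, so the split between Oas1a and Oas1g is uncertain.

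Of the members, 3 were abundant and 4 were low. Levels are given as FPKM, reads scaled by transcript length and by the library total, which can be compared between genes of different length. The mean FPKM over the 8 mice was 49.6 for Oasl2, 40.0 for Oasl1, 39.1 for Oas1a, 6.45 for Oas3, 5.82 for Oas2, 5.55 for Oas1g and 4.38 for Oas1c. Neighbours in this order were compared within each mouse on log2(FPKM + 0.1) by two-sided exact sign-flip permutation tests, with p-values adjusted over the 6 pairs. Oas1a was above Oas3 in 8 of 8 mice, by 2.67 ± 0.878 (SD, n = 8) on the log2 scale, at an exact p of 0.00781, the smallest that 8 mice can give (adjusted p = 0.0469). Oasl2 was above Oasl1 in 7 of 8 mice, by 0.31 ± 0.215 (exact permutation test, adjusted p = 0.0469). Oas1g was above Oas1c in 7 of 8 mice, by 0.32 ± 0.334 (exact permutation test, adjusted p = 0.0469). The other neighbours, Oasl1 and Oas1a, Oas3 and Oas2, and Oas2 and Oas1g, did not differ beyond their spread (exact permutation tests, adjusted p = 0.75, 0.539 and 0.977). These calls sat at the limit of what so few mice allow, and 2 of the 6 pairs passed without knockout mouse 1 or without control mouse 2, and 0 passed without any one of the other 6 mice. The test takes the 8 mice as independent. With mice of the same number flipped together as 4 pairs, 0 of the 6 pairs of genes passed, and the smallest p such an exact test can give is 0.125. In knockout mice the order of mean FPKM began with Oasl2, Oasl1 and Oas1a, and in control mice with Oasl2, Oas1a and Oasl1.

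Between the genotypes, the largest relative differences among the members were in the Oas1a and Oas1g pair. Oas1a had an FPKM of 22.96, 28.6, 27.2 and 42.1 in knockout mice 1 to 4 and of 43.0, 52.3, 49.9 and 46.7 in control mice 1 to 4. Every knockout mouse was below every control mouse, although knockout mouse 4 came close to control mouse 1. The group means were 30.2 ± 8.30 and 48.0 ± 4.03 (SD, n = 4 each). Oas1g had an FPKM of 3.85, 4.22, 4.37 and 5.27 in knockout mice and of 6.93, 5.63, 7.70 and 6.40 in control mice. Its groups did not overlap either, with knockout mouse 4 again the highest of its group and control mouse 2 the lowest of the controls. The means were 4.43 ± 0.603 and 6.67 ± 0.872. With these 2, Oas1a and Oas1g, 2 of the 7 members had groups that did not overlap, both lower in the knockout mice, while 1.92% of the 15968 genes whose mean FPKM reached 0.1 were lower, and 5.45% higher, without overlap. Because the members were listed for this contrast, nothing is read from that difference in shares. As Oas1a and Oas1g share many 50-base stretches and the split of such reads is uncertain, the 2 may not be separate signals. The count stayed at 2 without control mouse 2 (background 2.57%) and was 3, with Oasl1 added, without knockout mouse 4 (background 3.49%).

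**Figure D1:**
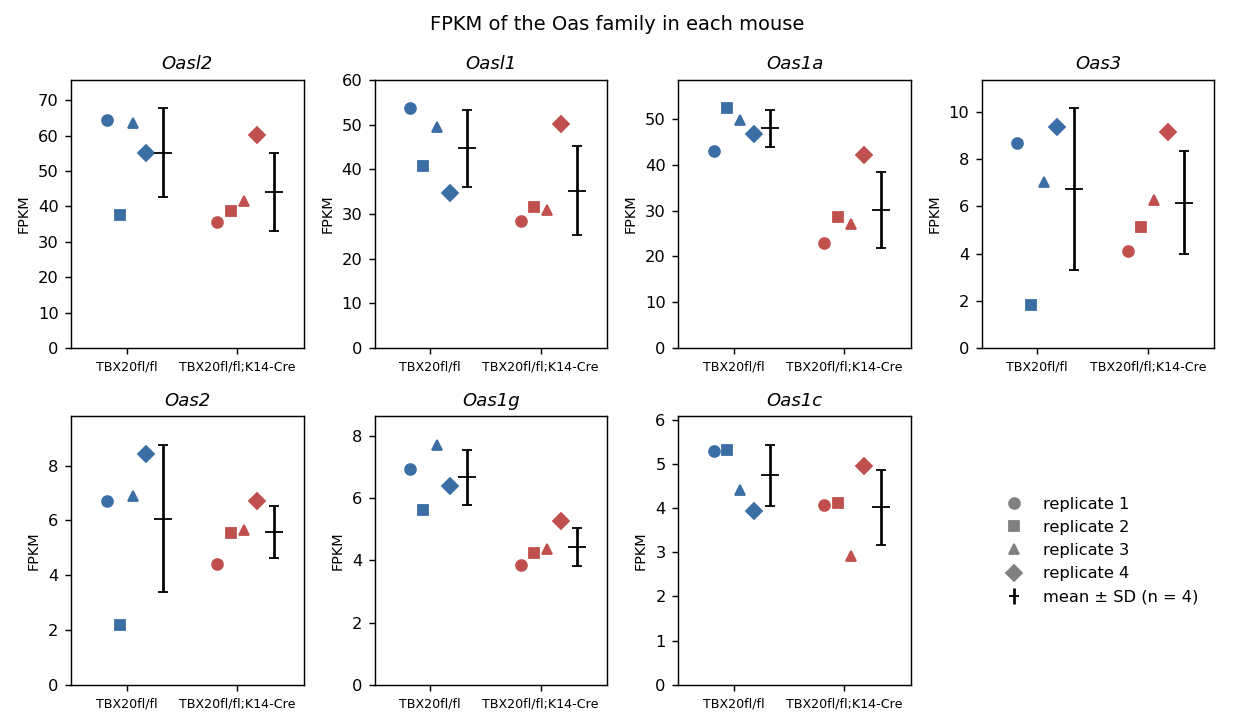
Deposited FPKM of the 7 Oas genes in each mouse, with 1 panel per gene and the y axis starting at 0. Blue points are TBX20fl/fl mice and red points TBX20fl/fl;K14-Cre mice, the shape gives the replicate number, and the bars give mean ± SD (n = 4). The groups are apart for Oas1a and Oas1g only, control mouse 2 is lowest for Oas3 (1.81) and Oas2 (2.20), and knockout mouse 4 is the highest red point in every panel.

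The remaining Oas1 copy, Oas1c, was low and its groups overlapped. Its FPKM was 4.07, 4.12, 2.91 and 4.96 in knockout mice and 5.30, 5.31, 4.4 and 3.93 in control mice. Knockout mouse 4 was above controls 3 and 4, and the means were 4.02 ± 0.842 and 4.74 ± 0.686. It had 1147 counts over the 8 mice, the fewest of the members. Among the Oas genes that were not on the list, Oas1f was the only abundant one, with a mean FPKM of 33.4 ± 5.15 in knockout and 41.7 ± 9.10 in control mice and overlapping groups. Oas1e had an FPKM of 0.69 to 1.1, and Oas1d and Oas1h had 14 and 7 counts in all mice together.

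Oas2 and Oas3, the members with several OAS units, differed little in the mean, and their differences moved with which mouse was left out. Oas2 had an FPKM of 4.39, 5.53, 5.66 and 6.72 in knockout mice and of 6.71, 2.20, 6.89 and 8.43 in control mice. Oas3 had 4.11, 5.12, 6.28 and 9.15 in knockout mice and 8.71, 1.81, 7.02 and 9.37 in control mice. For both genes control mouse 2 was the lowest of all 8 mice, while the other 3 controls lay above knockout mice 1 to 3. The means were 5.58 ± 0.953 and 6.06 ± 2.69 for Oas2 and 6.17 ± 2.18 and 6.73 ± 3.42 for Oas3, in knockout and control mice respectively.

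Oasl1 and Oasl2, the abundant members with ubiquitin-like domains, were lower in 3 of the knockout mice than in most controls. Oasl1 had an FPKM of 28.4, 31.6, 31.0 and 50.1 in knockout mice and of 53.7, 40.8, 49.6 and 34.8 in control mice. Knockout mice 1 to 3 were below all controls, and knockout mouse 4 was above 3 of them. Oasl2 had 35.7, 38.8, 41.5 and 60.3 in knockout mice and 64.4, 37.7, 63.6 and 55.1 in control mice. Knockout mice 1 to 3 were below controls 1, 3 and 4, whereas control mouse 2 lay among them. The means were 35.3 ± 9.96 and 44.7 ± 8.53 for Oasl1 and 44.1 ± 11.1 and 55.2 ± 12.4 for Oasl2.

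Across all genes, edgeR's quasi-likelihood test on the counts, with Benjamini-Hochberg adjustment, called 0 of 17124 genes (0% of those tested, smallest adjusted p = 0.498), and so no member. At an unadjusted p under 0.05 it held 1431 genes, 8.36% of those tested. DESeq2 called 10 of 16410 genes (0.0609%), and 1 of the 10 was Oas1g. All 7 members had a log2 fold change below 0 (knockout over control), as did 47.5% of all genes tested, though limma on log2(FPKM + 1) and log2(FPKM + 0.1) put only 6 and 5 of the 7 below 0, with Oas3 at 0.05 and Oas2 at 0.02 at the highest. The members' median was -0.47, and that of all genes was 0.03. Scaling by the library total alone moved the median of all genes to 0.17, with 34.3% of genes below 0, and that of the members to -0.32, with 7 of 7 still below 0. As each of these values comes from the contrast for which the members were listed, they are a description. The log2 fold change was -0.87 (SE 0.233) for Oas1a and -0.75 (SE 0.156) for Oas1g. It was -0.53 (SE 0.227) for Oasl1, -0.47 (SE 0.186) for Oasl2 and -0.43 (SE 0.228) for Oas1c. For Oas3 it was -0.22 (SE 0.381) and for Oas2 -0.22 (SE 0.283), both smaller than their standard error. The members thus fell into a range from Oas1a at the low end to Oas2 and Oas3 near 0.

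Part of that range moved with control mouse 2. Its log2 CPM minus the median of the other 3 controls was 0.66 for Oas1a, 0.55 for Oas1c, 0.19 for Oas1g, 0.18 for Oasl1, -0.29 for Oasl2, -1.21 for Oas2 and -1.77 for Oas3. This is exactly the order of the transcripts by length, as derived from the deposited counts and FPKM, from 1493 bases for Oas1a and 1704 for Oas1c over 1959 for Oas1g, 2102 for Oasl1 and 2659 for Oasl2 to 3965 for Oas2 and 4670 for Oas3. Short members were high in this mouse and long members low. The smooth trend with transcript length fitted in this mouse over genes with a mean of at least 50 counts ran the same way. On the log2 scale it was 0.62 at the length of Oas1a, 0.47 at Oas1c, -0.53 at Oas2 and -0.73 at Oas3. The pattern was thus one of this library over many genes and not particular to the Oas genes. The cause of this pattern was not tested.

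**Figure D2:**
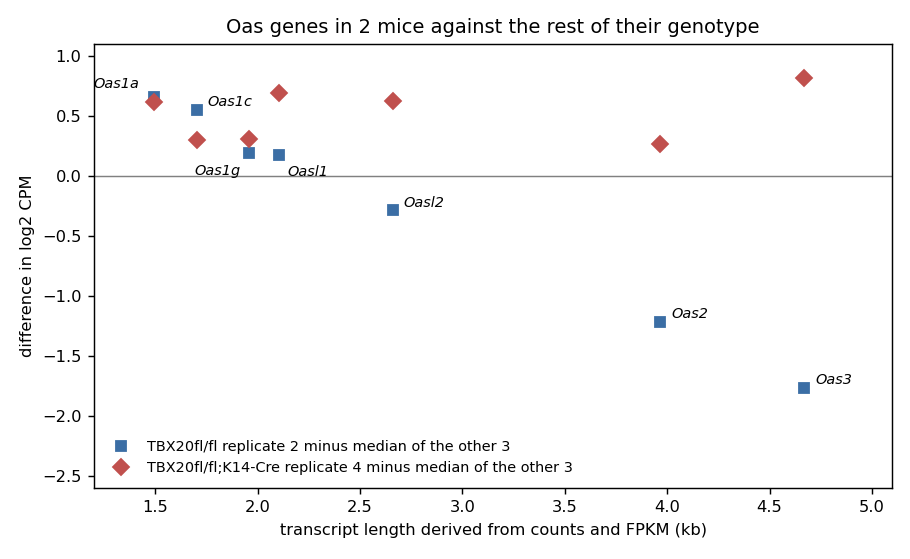
Difference in log2 CPM between 1 mouse and the median of the other 3 of its genotype (y axis) against transcript length in kb (x axis) for the 7 Oas genes. Blue squares are control mouse 2 and fall from 0.66 for Oas1a to -1.77 for Oas3. Red diamonds are knockout mouse 4 and lie between 0.27 and 0.81 at all lengths.

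Without control mouse 2, the log2 fold changes lay closer together. They were then -0.68 for Oas1a, -0.71 for Oas1g, -0.25 for Oas1c, -0.44 for Oas2, -0.49 for Oas3, -0.45 for Oasl1 and -0.52 for Oasl2. Oas2 and Oas3 moved down, past their standard errors of 0.142 and 0.233, while Oas1a and Oas1c moved towards 0. Without knockout mouse 4 both also moved down, to -0.31 and -0.46, and without knockout mouse 3 both stayed at -0.22. Some other settings moved Oas2 and Oas3 the other way. Without control mouse 4 both were at -0.05, and without knockout mouse 1 they were at -0.12 and -0.08. They were at -0.18 and -0.09 without control mouse 1, and at -0.15 and -0.13 in the fit with the replicate block. Removing from each mouse a smooth trend of the counts with transcript length, with all 8 mice kept, gave -0.58 for Oas1a, -0.62 for Oas1g, -0.21 for Oas1c, -0.35 for Oas2, -0.40 for Oas3, -0.42 for Oasl1 and -0.46 for Oasl2. The spread of the members was narrower under both settings than with all 8 mice and no correction. After the length trend was removed, the SD of Oas1a among the 4 controls was 0.053 in place of 0.341 on the log2 scale, and that of Oas3 was 0.468 in place of 0.866.

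**Figure D3:**
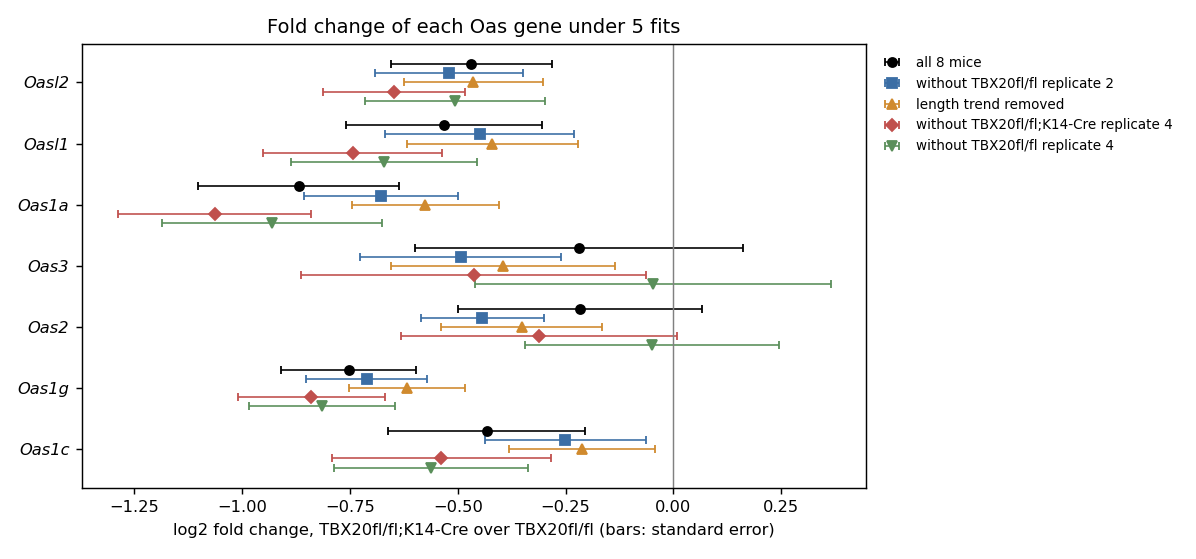
Log2 fold change, knockout over control, of each Oas gene in edgeR (x axis) under 5 fits, with bars for the standard error. Black is the fit of all 8 mice, blue the fit without control mouse 2, orange the fit with the trend with transcript length removed, red the fit without knockout mouse 4 and green the fit without control mouse 4. All points lie below 0, and those of Oas2 and Oas3 shift from -0.22 both down, to -0.44 and -0.49 without control mouse 2, and up, to -0.05 without control mouse 4.

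Knockout mouse 4 was high at all transcript lengths. It had the highest log2 CPM of the knockout mice for 7 of 7 members, above the median of the other 3 by 0.62 for Oas1a, 0.30 for Oas1g, 0.30 for Oas1c, 0.27 for Oas2, 0.81 for Oas3, 0.69 for Oasl1 and 0.62 for Oasl2. Knockout mouse 1 was the lowest for 6 of 7, the exception being Oas1c. The mean log2 CPM of the 7 members was 4.48, 4.63, 4.64 and 5.13 in knockout mice 1 to 4 and 5.29, 5.05, 5.30 and 5.15 in control mice 1 to 4. By this mean 3 knockout mice were below all controls, and knockout mouse 4 was level with controls 2 and 4. Without knockout mouse 4 the log2 fold changes were -1.06 for Oas1a, -0.84 for Oas1g, -0.54 for Oas1c, -0.31 for Oas2, -0.46 for Oas3, -0.74 for Oasl1 and -0.65 for Oasl2.

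Members also differed in which of the others they followed from mouse to mouse. As a description over the 8 mice, with each gene's log2 CPM taken as the deviation from its genotype mean, Oas2 and Oas3 had a Pearson r of 0.97 and Oas1a and Oas1g one of 0.83. Oas1a and Oas3 had an r of -0.28, which was 0.66 once the length trend was removed. Oasl2 and Oas1g went from 0.70 to 0.95 in the same way. Other pairs went down, Oas1a and Oas1c from 0.70 to 0.39, Oas1c and Oas1g from 0.62 to 0.36 and Oas1a and Oas1g from 0.83 to 0.77. All of these points share the same 8 libraries, and reads shared between Oas1a and Oas1g enter their r.

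The genes whose pattern over the mice was most like the mean of the members, out of 15069 other genes with a mean of at least 10 counts, were Tubb4a (r = 0.98), Parp8 (0.96), Clca1 (0.96), Rab8b (0.95) and Pfkp (0.94). These are values over 8 mice picked from many genes. Only 2 of the 5 remained among the closest 5 without control mouse 2, and 2 of 5 when genotype means were not removed. Of the 35 other interferon-stimulated genes tested, 31 had an r above 0 with the members, with a median of 0.36, beside a median of 0.06 over all 15069 genes, of which 8100 had an r above 0. The 10 sensors of double-stranded RNA or DNA and their effectors had a median r of 0.67, with 10 of 10 above 0, and the 13 signalling genes one of 0.46, with 12 of 13 above 0. The 6 receptor genes had a median r of 0.16, with 3 of 6 above 0, and the 3 genes of the 2-5A list one of -0.05, with 1 of 3 above 0.

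The neighbouring genes of the pathway were taken from lists of 86 genes, of which 71 were tested. The lists were drawn up with results of these data known, and the contrast is that of the members. edgeR called 0 of the 71, and 61 had a log2 fold change below 0, with a median of -0.46. At an unadjusted p under 0.05, 32 were lower and 0 higher in the knockout mice, while 5.91% of all genes tested were lower at that level. Because of how the lists were drawn up, nothing is read from that difference in shares. Pde12, which degrades 2-5A, had a log2 fold change of -0.14 (SE 0.124), and Abce1, a regulator of the 2-5A pathway, one of -0.17 (SE 0.16). Neither had an unadjusted p under 0.05. With the length trend removed they were -0.28 and -0.36.

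Of the interferon-stimulated genes, 33 of the 35 tested had a log2 fold change below 0, with a median of -0.79. Of the 35, 5 had FPKM values lower in the knockout mice without overlap, as did 1.92% of the 15968 genes compared in this way. Nothing is read from these shares either, as this list was drawn up with results of these data known. Isg15, a ubiquitin-like modifier, had an FPKM of 181 ± 48.0 in knockout and 365 ± 155 in control mice (SD, n = 4 each) and a log2 fold change of -1.27 (SE 0.395). Ifi27l2a had 291 ± 36.4 and 600 ± 187, and also -1.27 (SE 0.314). Trim25, which acts with the RNA sensor RIG-I, was at the other end with 0.07 (SE 0.262). All 3 values leaned on control mouse 2: without it they were -0.76 for Isg15, -0.89 for Ifi27l2a and -0.14 for Trim25, and with the length trend removed -0.60, -0.53 and -0.21. The median of the list was -0.57 without control mouse 2, where that of the Oas members was -0.49, and -0.61 with the length trend removed, where that of the members was -0.42.

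The mean log2 CPM of the 35 interferon-stimulated genes was 6.52, 6.68, 6.67 and 7.11 in knockout mice 1 to 4 and 7.33, 7.74, 7.52 and 6.94 in control mice 1 to 4. As for the Oas members, mouse 4 was the highest and mouse 1 the lowest of the knockout group. In the controls the orders of these means differed, since mouse 2 had the highest mean for these genes and the lowest mean for the Oas members, although its log2 CPM was the highest of the controls for the short members Oas1a, Oas1c, Oas1g and Oasl1. By FPKM it was the highest for Oas1a and Oas1c but the lowest for Oas1g, so the 2 scales place this mouse differently.

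Upstream of the Oas genes, 5 of the 13 listed interferons had a row in the table, and the other 8, all listed Ifna genes included, were not analysed here. Those tested were barely detected. Ifnb1 had 33, Ifnk 32, Ifng 45 and Ifnz 20 counts over all 8 mice, and the median of their log2 fold changes, -1.58, rests on those few counts. The 6 receptor genes had a median of -0.27, from -0.41 (SE 0.198) for Il10rb to 0.37 (SE 0.234) for Ifnlr1, and the 13 signalling genes one of -0.20, with the kinase gene Tyk2 highest at 0.23 (SE 0.262). Without control mouse 2 these 3 were at -0.22 for Il10rb, 0.20 for Ifnlr1 and 0.01 for Tyk2. Of the signalling genes, Irf7, a factor that amplifies interferon production, had -0.66 (SE 0.173), Usp18, a brake on interferon receptor signalling, -0.75 (SE 0.299), and Irf9 -0.48 (SE 0.185). Stat2 had -0.01 (SE 0.244), and -0.20 without control mouse 2. Of the 10 sensors and effectors, with a median of -0.31, Zbp1, a sensor of Z-form nucleic acids, was furthest from 0 at -0.86 (SE 0.203). With the length trend removed Zbp1 was at -0.51 and no longer furthest, as Ifih1 was at -0.74 and Eif2ak2 at -0.72. Mavs, the adaptor of the RNA sensors, was the highest at 0.28 (SE 0.21), and at 0.11 without control mouse 2.

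**Figure D4:**
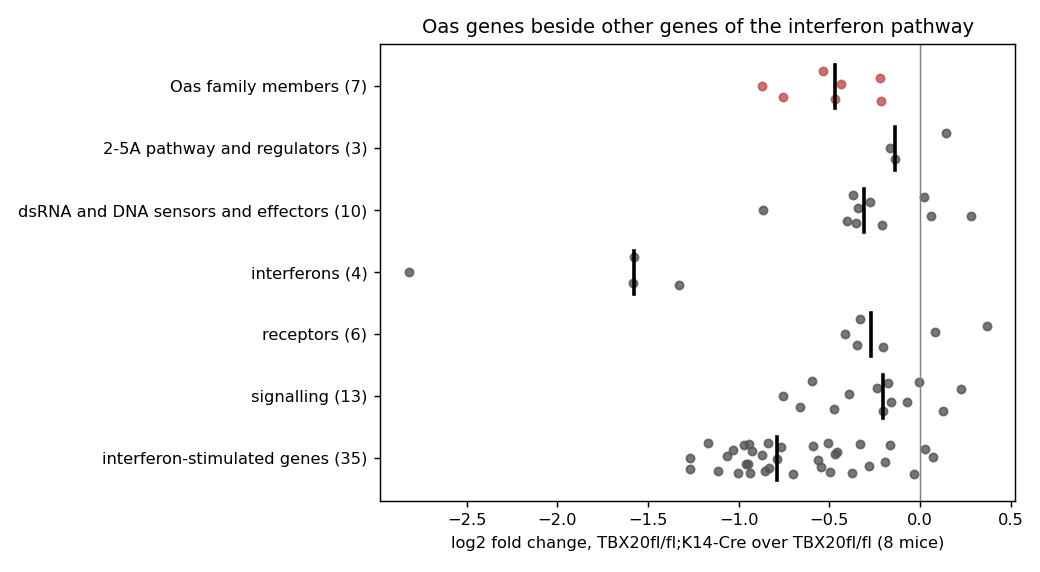
Log2 fold change, knockout over control, of the 7 Oas genes (red) and of the 71 tested genes of the interferon pathway lists (grey), with 1 point per gene and a bar at each list's median. The number of genes tested is in brackets. The Oas genes lie between -0.87 and -0.22, and the interferon-stimulated genes between -1.27 and 0.07.

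Of 5 lists of markers for leukocytes that could carry Oas transcripts, the neutrophil list was apart between the groups, and the ranges of the other 4 overlapped. The summed CPM of 10 neutrophil markers was 229 to 371 in knockout and 407 to 737 in control mice, without overlap, and 10 of the 10 had a lower mean in knockout mice. Within the knockout group it was lowest in mouse 1 and highest in mouse 4, as for the Oas members, and in the controls it was lowest in mouse 1, whereas the mean log2 CPM of the members was lowest in mouse 2 (of single members, Oas1a was lowest in mouse 1). The sum of 8 monocyte markers was 617 to 854 and 656 to 1158, with 7 of 8 lower in the mean. For 9 macrophage markers it was 1056 to 1661 and 967 to 1557, with 3 of 9 lower, and for 7 markers of plasmacytoid dendritic cells, a source of interferon, 227 to 297 and 265 to 290, with 4 of 7 lower. For 8 T cell markers it was 167 to 224 and 169 to 214, with 5 of 8 lower. The monocyte and T cell sums were also lowest in knockout mouse 1 and highest in knockout mouse 4, so that order is not particular to neutrophil markers. The macrophage sum was lowest in knockout mouse 1 but highest in mouse 3. The plasmacytoid dendritic cell sum was highest in knockout mouse 4 but lowest in mouse 2. No marker of these lists was under 10 counts over the 8 mice. Whether the listed genes, those for plasmacytoid dendritic cells included, came from that cell type alone in whole skin was not tested. These sums are therefore not counts of cells. The part of these cells in the Oas values was not tested either.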

How the data were processed

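The authors sequenced RNA of cheek skin (4 TBX20fl/fl;K14-Cre and 4 TBX20fl/fl mice) as single-end 50-base reads, filtered the reads with SOAPnuke and aligned them with HISAT. The deposited expected counts (estimated counts, not normalized) and the deposited FPKM values of 18901 genes were used. The counting program, its strand setting and its treatment of reads shared between genes are not given in the sources used here. The authors also deposited TPM values, a signal of counts divided by size factors, and their own comparisons (log2 fold changes with p-values), none of which was used. Coordinates of the genes are those of the table and those of the promoter stretches are from the RefSeq windows, all on GRCm38.

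Counts, of which 69.0% above 0 were not whole (tolerance 0.005), were rounded. The 17124 genes that reached a sum of 10 counts were TMM-scaled and compared by edgeR (4.0.16, R 4.3.3, quasi-likelihood), with Benjamini-Hochberg adjustment at 0.05. Log2 CPM used a prior count of 2. Totals of 16056282 to 19880654 counts limit the precision, and the floor of 3 counts covers counting error only. DESeq2 1.42.0 and limma 3.58.1 on log2(FPKM + 1) or log2(FPKM + 0.1) were alternatives, as were other scaling, no filter, a trend with transcript length as an offset (fitted on genes with a mean of at least 50 counts), a replicate block and leaving out mice. Neighbours in FPKM were compared by exact sign-flip tests (Python 3.11.15, scipy 1.17.1). The edgeR fit, with and without the length trend, was tested on simulated counts that held no outlying mouse. The sign-flip test was checked on set values, and DESeq2 and limma were not checked in this way.

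Each mouse is 1 library. Same-numbered mice of the 2 genotypes deviated together (r = 0.15 to 0.40 over 15076 genes, each above the 0.1 set for pairing), so the numbers were taken to pair them. Mice of different number had r = -0.48 to 0.37, and the highest of these, knockout mouse 4 with control mouse 1, was above 3 of the 4 same-number values. Numbers come from the labels, and what they stand for is not given there. The members, gene lists and tests were chosen with earlier results of these data known. Named were all Oas genes, Tbx20, examples from the pathway lists (those with the lowest and highest fold change or with a role next to OAS) and the 5 genes most like the members. Promoter windows were taken from RefSeq and transcripts for the 50-base comparison from GENCODE. The values of some listed pathway genes are not reported here.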

Additional observations from a re-analysis of the deposited data

Results flagged for a closer look

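One value was flagged for its distance from the rest of its group. Oasl1 had an FPKM of 50.1 in TBX20fl/fl;K14-Cre replicate 4, while the other 3 mice of that genotype had 28.4 to 31.6, and the gap to the nearest of them was 0.854 of the group's range, above Dixon's critical value for 4 samples. It was 1 of 16 groups examined, and chance flags about 1 in 20 groups, which is 0.8 here. The same mouse had the highest log2 CPM of its genotype for 7 of 7 members.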

How the results depend on the processing

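The median log2 fold change of the members, -0.47, was -0.65 to -0.42 with each mouse left out in turn, and all 7 members stayed below 0 there. Of the 19 alternatives, limma on FPKM alone put Oas2 and Oas3 above 0. With the replicate block the median was -0.49 and edgeR called 0 genes, with 1723 at an unadjusted p under 0.05, and the block changed no call of that test. DESeq2 called 10 genes where edgeR called 0, and with each mouse left out edgeR called 0 to 0 genes and 0 to 0 of the pathway lists. The count of neighbour pairs apart in FPKM, 3, was 0 to 2 with each mouse left out, and 0 with the replicate block (mice flipped by pair, added after seeing the data). By the 4 control mice alone, 3 of 7 members kept their position in the order. Of the 5 genes most like the members, 2 remained without TBX20fl/fl replicate 2, and 2 without centring by genotype. Of the fits chosen after seeing the data, the length trend removed without TBX20fl/fl replicate 2, and leaving out both mice numbered 2, kept all 7 members below 0. The counts behind Oas1c and the interferons limit what can be seen there. The causes of these changes were not tested.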
